A study of Rattus norvegicus with 2 samples.

Results

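The genes described here take iron into the cell, store it, export it, build heme and iron-sulfur clusters from it, and break heme down. They were chosen by name: 35 genes were listed, and 30 of them had a probe set annotated to 1 gene only, of 14217 such genes on the array. Of the 30, 25 were measured, meaning that their signal passed the floor in 1 array or more, and 23 passed it in both. The floor, 31.0, is the median signal of all probe sets in both arrays. Signals under it were raised to it, so the ratio of a gene that passed it in a single array is a bound. Fth1, Ftl1 and Tf were listed only on probe sets shared with other genes, and Slc11a1 and Ltf were not named in the probe annotation used here.

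The samples were 2 cultures of AT6.1, an established rat prostate cancer cell line, with 1 Affymetrix array each and no replicates. Both carried the pcDNA3 expression vector and were kept under 0.3 mg/mL of the selection drug G418 in RPMI 1640 medium with 10% fetal calf serum. Clone 7, here the Ndrg-1 clone, carried N-myc downstream regulated gene-1 in that vector, and clone 9, here the vector clone, carried no insert. Each group was 1 clone, so clone, culture, array and insert cannot be told apart, and no p-value is given for any difference.

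Animal cells take up most of their iron as transferrin-bound iron through the transferrin receptor. In the endosome a STEAP-family reductase converts ferric to ferrous iron, and the transporter DMT1 moves it to the cytosol, where poly(C)-binding proteins act as chaperones that load the storage protein ferritin. When iron is scarce, the iron regulatory proteins stabilise transferrin receptor mRNA and block ferritin translation. Heme is built partly in mitochondria and is opened by heme oxygenase, which releases its iron, and the inducible form of that enzyme answers to heme, oxidants and other stresses. NDRG1 itself is known as a gene that cells induce when iron is chelated.

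The transferrin receptor gene Tfrc, the heme oxygenase gene Hmox1 and the siderophore-binding protein gene Lcn2 had higher signals in the Ndrg-1 clone. Most other members differed little. On the brightest probe set of each gene, Hmox1 alone reached 2-fold, 1 of the 25 measured members, and 0 were 2-fold lower. The second probe set of Tfrc, not used for this count, was also past 2-fold (2.20-fold). Over all 9182 measured genes, 1.62% were higher by 2-fold or more and 1.50% lower, so the members' count lies near the background. At a threshold of 1.5-fold, chosen after the values were seen, 3 members were higher and 0 lower, where 5.54% and 5.18% of all measured genes were. The median log2 ratio (Ndrg-1 clone over vector clone) of the members was -0.04, and that of all measured genes was 0.0029. Without Hmox1, Tfrc and Lcn2, a set picked after seeing the values, the other 22 members ranged from -0.46 to 0.42 around a median of -0.11.

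To show the DNA in front of the genes that differed most, the 250 bases before the transcription start are given, from RefSeq on assembly GRCr8. They are shown for Tfrc and Lcn2, which were higher, and for Steap1, grouped here with the uptake genes, which was not. The promoter of Hmox1 was not analysed here. Letters in capitals mark ACGTG, the core of the element that hypoxia-inducible factors bind.
Tfrc, chr11:81690319-81690568, minus strand: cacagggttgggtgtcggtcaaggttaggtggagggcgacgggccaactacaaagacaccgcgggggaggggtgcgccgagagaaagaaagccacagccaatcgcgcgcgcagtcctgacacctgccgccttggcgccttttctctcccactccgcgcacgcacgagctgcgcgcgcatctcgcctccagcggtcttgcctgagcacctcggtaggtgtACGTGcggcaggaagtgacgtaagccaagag
Lcn2, chr3:36081781-36082030, minus strand: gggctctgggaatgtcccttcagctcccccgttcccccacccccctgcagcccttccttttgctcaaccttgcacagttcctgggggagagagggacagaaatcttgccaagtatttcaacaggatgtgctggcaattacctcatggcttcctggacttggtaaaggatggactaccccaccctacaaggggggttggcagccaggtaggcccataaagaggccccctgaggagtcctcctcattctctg
Steap1, chr4:29231559-29231808, plus strand: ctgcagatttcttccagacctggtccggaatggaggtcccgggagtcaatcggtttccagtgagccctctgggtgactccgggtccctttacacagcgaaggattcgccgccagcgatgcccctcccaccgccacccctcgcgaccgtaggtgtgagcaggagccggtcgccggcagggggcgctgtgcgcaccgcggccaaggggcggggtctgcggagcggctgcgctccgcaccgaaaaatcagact
Tfrc had 1 such match, on the gene's own strand, beginning 31 bases before the start. Lcn2 and Steap1 had 0. Searched on both strands, ACGTG was found in 6 of the 30 promoters held for 28 listed members (20.0%) and in 16.6% of all 33469 promoters. The 6 were those of Tfrc, Hmox2, Iscu, Ncoa4, Pcbp1 and Urod. Of these genes, Tfrc alone had a log2 ratio above 0 with the reported scaling. Hmox2 was at -0.04, Iscu and Ncoa4 at -0.16, Pcbp1 at -0.11 and Urod at -0.36. TGACNNNGC, the core of the antioxidant response element, was found in 3 of the 30 (10.0%), those of Blvra, Hmox2 and Ncoa4, and in 10.1% of all. The Ncoa4 window and 1 of the Hmox2 windows held both. The shares among the members lie near those of all promoters, and a match is a run of letters, not a site shown to be bound.

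**Figure D1:**
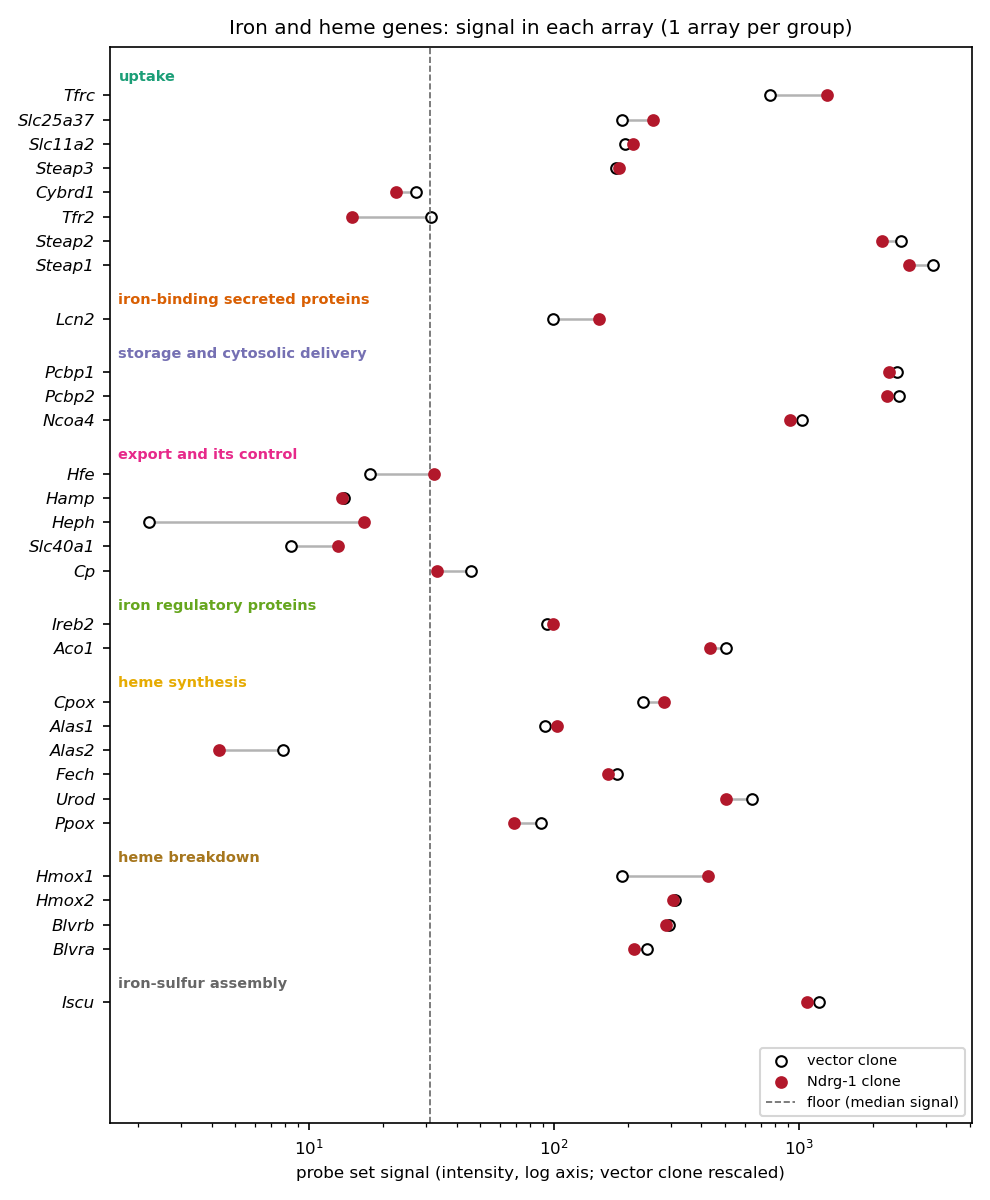
Probe set signal on a log axis for the 30 members with a probe set of their own, grouped by role, with open circles for the vector clone, filled circles for the Ndrg-1 clone and a dashed line at the floor of 31.0. Hmox1 (427 against 190) and Tfrc (1303 against 759) show the widest gaps among members that passed it in both arrays, and Cybrd1, Hamp, Heph, Slc40a1 and Alas2 lie under the floor in both.

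Uptake genes differed mainly at the receptor. Tfrc, the transferrin receptor, read 1303 in the Ndrg-1 clone and 759 in the vector clone on its brighter probe set, a log2 ratio of 0.78 (1.72-fold). Its second probe set read 524 against 239, a log2 ratio of 1.13 (2.20-fold). Both probe sets were higher in the Ndrg-1 clone, and 3.01% of all measured genes had a ratio above that of the brighter one. Without replicates, the error at hand is how far probe sets of the same gene differ, with an SD of 0.23 on the log2 scale over 5336 probe sets of 2296 genes. It leaves out the variation between clones, cultures and arrays. Both Tfrc ratios exceeded 2 SD (0.46). Beyond 2 SD on either side lay 3 of the 25 measured members and 1551 of all 9182 measured genes. Passing this limit is thus not rare on these arrays. Tfr2, the second transferrin receptor, which senses iron mainly in liver and erythroid cells, read 31.6 in the vector clone and fell short of the floor in the Ndrg-1 clone, a ratio of -0.02 or lower.

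No measured gene for the steps after the receptor had a difference as large as that of Tfrc. Slc11a2, which encodes DMT1, read 209 against 194 on its brighter probe set (log2 ratio 0.11) and 170 against 174 on the other (-0.03). Steap3, the endosomal ferrireductase best known from red cell precursors, read 184 against 179 (0.04). The related STEAP-family genes Steap1 and Steap2 are both known for high expression in prostate tissue. Both were slightly lower in the Ndrg-1 clone in all settings but the hybridisation-spike scaling. Steap1 read 2824 against 3522 (-0.32). Steap2 read 2189 against 2600 (-0.25), and 314 against 437 on its second probe set (-0.48). The first Steap2 ratio and that of Steap1 lay within these 2 SD, the second Steap2 ratio just outside. Slc25a37, mitoferrin-1, which carries iron into mitochondria, read 255 against 190 (0.42), within 2 SD. Cybrd1, a ferric reductase of the gut surface, lay under the floor in both arrays at 22.6 and 27.3.

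Lcn2 encodes lipocalin-2, a secreted protein that binds bacterial siderophores and is induced in inflammation. It read 153 in the Ndrg-1 clone against 98.6 in the vector clone (log2 ratio 0.63, 1.55-fold) on its 1 probe set. Its ratio exceeded 2 SD, and 4.75% of all measured genes had a higher one.

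**Figure D2:**
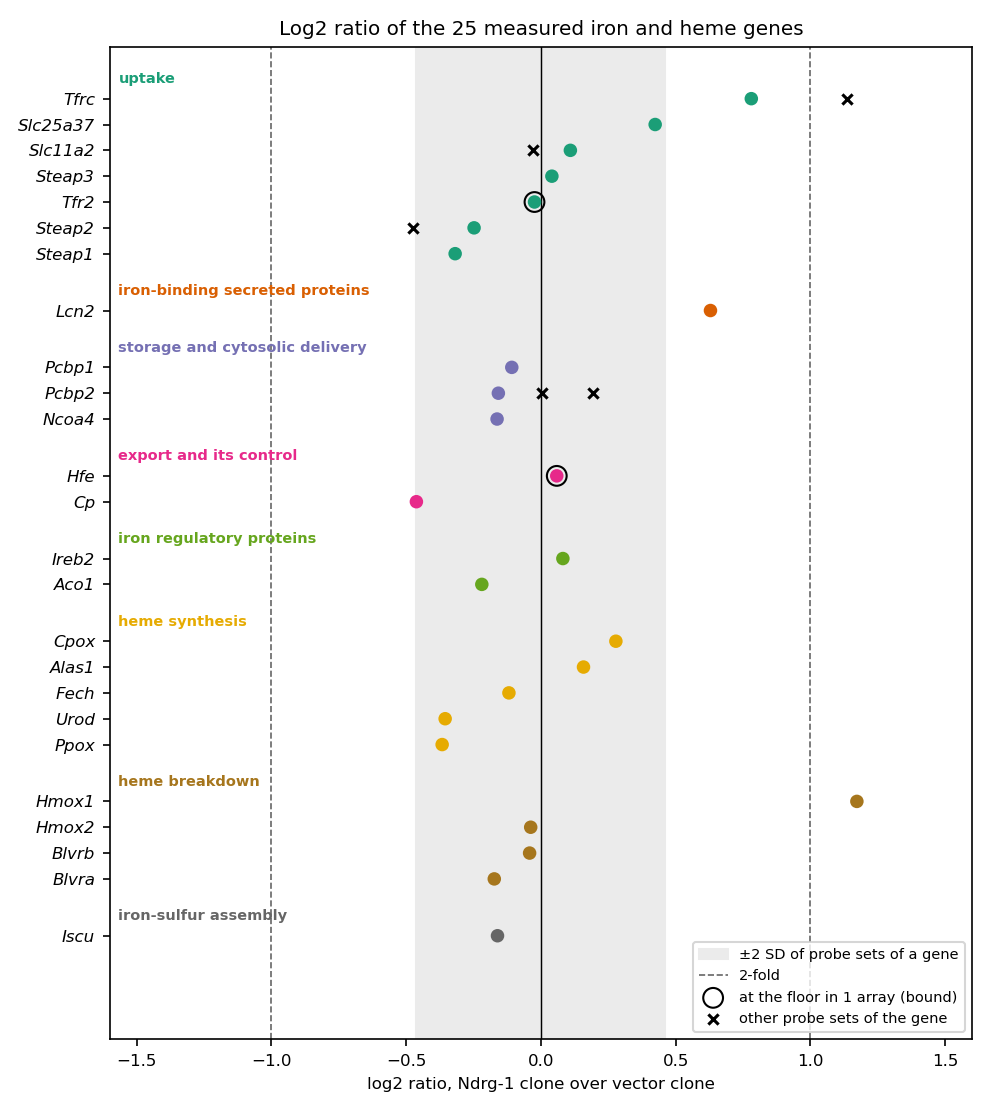
Log2 ratio of the Ndrg-1 clone over the vector clone for the 25 measured members by role, with crosses for other probe sets of the same gene, a grey band for 2 SD of the spread between probe sets (0.46) and dashed lines at 2-fold. Hmox1, Tfrc and Lcn2 lie to the right of the band. The first probe set of every other member lies inside it, with Cp at its edge (-0.46). Of all 9182 measured genes, 1551 lie outside the band.

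The 3 measured genes for iron storage and delivery read slightly lower in the Ndrg-1 clone, all within 2 SD, but 2 of the 3 were above 0 with quantile normalization and with the lowess trend removed, and all 3 with hybridisation-spike scaling. Ncoa4, the receptor that brings ferritin to the autophagosome for iron release, read 916 against 1025 (-0.16). The iron chaperone genes Pcbp1 and Pcbp2 read 2325 against 2506 (-0.11) and 2290 against 2555 (-0.16). Their sign is not settled: Pcbp1 turned above 0 under quantile normalization, lowess and hybridisation-spike scaling, and Pcbp2 under these and when the median over its probe sets was taken. The other Pcbp2 probe sets read 330 against 288 (0.20) and 43.9 against 43.8 (0.0030). Iscu, the scaffold on which mitochondrial iron-sulfur clusters are assembled, read 1083 against 1211 (-0.16).

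Genes of iron export were near or under the floor. Ferroportin (Slc40a1), the cellular iron exporter, had 3 probe sets between 4.25 and 17.5 in the Ndrg-1 clone and between 1.99 and 8.98 in the vector clone, all under the floor. Hamp, the hormone hepcidin that degrades ferroportin, read 13.6 and 13.9, and Heph, the ferroxidase hephaestin, 16.7 and 2.22, also under the floor. Cp, the ferroxidase ceruloplasmin, read 33.4 against 46.0 (-0.46), near the floor, and its other 2 probe sets lay under it. Hfe, the hemochromatosis protein that modulates the transferrin receptor, read 32.3 in the Ndrg-1 clone and lay under the floor in the vector clone, a ratio of 0.06 or more. No fold can be given for the members under the floor in both arrays.

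The iron regulatory protein genes differed little. Aco1, which encodes the protein that is either cytosolic aconitase or iron regulatory protein 1, read 433 against 504 (-0.22). Ireb2, iron regulatory protein 2, read 99.3 against 93.8 (0.08). Neither ratio exceeded 2 SD, and mRNA signals do not measure the activity of these proteins, which iron sets after translation.

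Heme synthesis genes went both ways by small amounts, with 2 of the 5 measured above 0 and a median log2 ratio of -0.12. Alas1, the housekeeping form of the first and rate-limiting enzyme, read 103 against 92.1 (0.16), while Alas2, the erythroid form, lay under the floor at 4.29 and 7.84. Urod, uroporphyrinogen decarboxylase, read 505 against 646 (-0.36). Cpox, the coproporphyrinogen oxidase that follows it, read 280 against 231 (0.28), and Ppox, the next oxidase, 68.7 against 88.6 (-0.37). Fech, ferrochelatase, which inserts the iron, read 166 against 181 (-0.12). All 5 ratios lay within 2 SD.

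Heme breakdown differed at 1 gene. Hmox1, the inducible heme oxygenase, read 427 in the Ndrg-1 clone and 190 in the vector clone, a log2 ratio of 1.17 (2.25-fold), and 1.06% of all measured genes had a higher ratio. It had 1 probe set, so no second reading on these arrays bears on it. Hmox2, the constitutive heme oxygenase, read 305 against 313 (-0.04). The biliverdin reductase genes, which act on the product of both oxygenases, were also close to 0. Blvra read 213 against 240 (-0.17) and Blvrb 285 against 294 (-0.04).

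**Figure D3:**
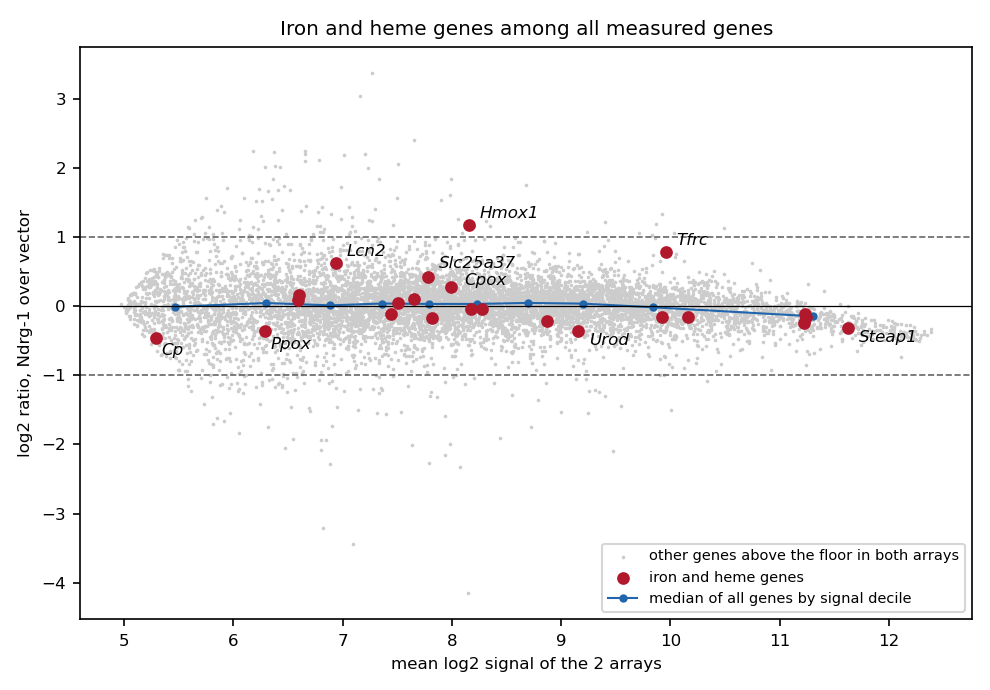
Log2 ratio against mean log2 signal for the 8552 genes above the floor in both arrays, with the 23 members in red and the median of all genes in each signal decile joined in blue. Hmox1 and Tfrc stand above most genes of similar signal, and Steap1 lies where the blue line bends down to -0.15.

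The ratio of all genes bent down at high signal, which touches the brightest members. In the brightest decile of genes the median log2 ratio was -0.15, and 4 members lay there (Steap1, Steap2, Pcbp1 and Pcbp2). Set against the median of their own decile, Steap1 was at -0.17, Steap2 at -0.10, Pcbp2 at -0.01 and Pcbp1 at 0.04. With quantile normalization Steap1 was at -0.07 and Steap2 at -0.08. With the lowess trend removed they were at -0.12 and -0.09. Tfrc was 0.80 above the median of its decile, Hmox1 1.14 and Lcn2 0.62. The values for these 3 genes hardly moved, whereas those of the brightest 4 came closer to 0.

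Directions depended on the scaling for most members. The spiked controls did not give 1 common scale: the hybridisation spikes had a median log2 ratio of -0.54 and the poly-A spikes, which pass through the whole labelling, of 0.22. Scaled to the former, the median of all genes was 0.53 and all 24 measured members were above 0, with Hmox1, Tfrc and Lcn2 at least 2-fold higher. Scaled to the latter, the median of all genes was -0.21, 5 of 24 members were above 0 and none reached 2-fold. Hmox1 was above 0 in each of the 10 alternative settings (0.96 to 1.72), as was Tfrc (0.57 to 1.32). Lcn2 was above 0 in the 9 that measured it (0.41 to 1.17). Slc25a37 (0.21 to 0.97) and Cpox (0.06 to 0.82) were above 0 in all 10.

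**Figure D4:**
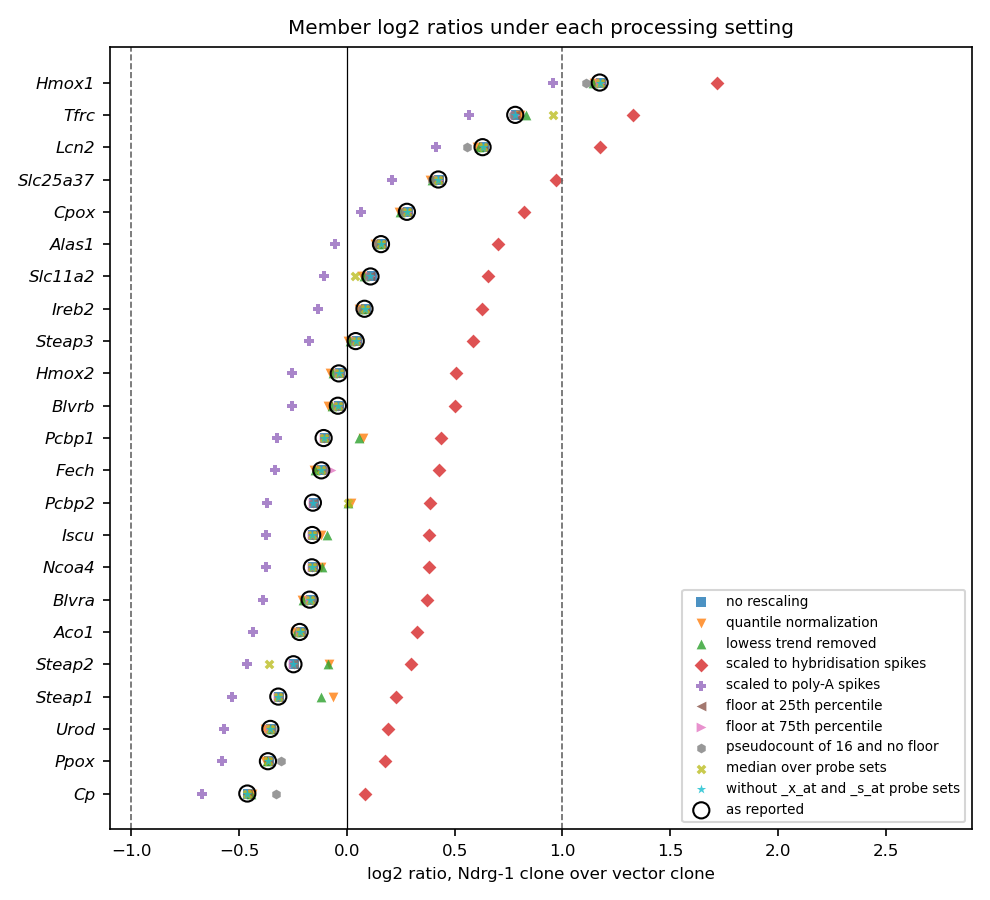
Log2 ratio of each of the 23 members above the floor in both arrays under the reported setting (open circles) and each alternative (coloured marks). Hmox1, Tfrc, Lcn2, Slc25a37 and Cpox stay right of 0 throughout, while the hybridisation-spike scaling (red diamonds) places every member right of 0.

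A wider list of 72 genes tied to iron, heme and iron-sulfur clusters was read the same way. Of these, 64 had a probe set of their own and 50 were measured, 1 higher by 2-fold or more and 0 lower, with a median log2 ratio of 0.03. The background shares are the 1.62% and 1.50% given above. Bdh2, a hydroxybutyrate dehydrogenase linked to mammalian siderophore synthesis, read 63.8 in the Ndrg-1 clone and lay under the floor in the vector clone, at least 2.06-fold higher. Where both readings passed the floor, the highest ratios were those of Tmem14c, which moves porphyrins in mitochondria (580 against 395, 0.55), and Hspa9, the mitochondrial HSP70 that serves iron-sulfur transfer (1510 against 1095, 0.46). The other Hspa9 probe sets were at 0.42, 0.0017 and 0.68. The lowest were Lrp1, the endocytic receptor that clears heme-hemopexin among other ligands (601 against 915, -0.61), and Scara5, a ferritin receptor (178 against 247, -0.47), and the second turned above 0 with hybridisation-spike scaling.

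Grouped by role after the values were seen, the mitochondrial iron-sulfur genes of the wider list had 10 of 15 measured above 0 and a median of 0.20. The scaffold gene Iscu, counted with the first list and left out of this group, was at -0.16 with the reported scaling. Of all 9182 measured genes 4625 were above 0, with a median of 0.0029. The group median was 0.11 when the median over probe sets was taken. With poly-A scaling 7 of 16 were above 0 and the median was -0.02, where that of all genes was -0.21. They included the electron donors Fdx1 (796 against 622, 0.36) and Fdx2 (304 against 250, 0.28), the carrier Isca1 (229 against 188, 0.29, but 108 against 122, -0.18, on its other probe set), Lyrm4, the partner of the cysteine desulfurase (279 against 239, 0.22), and that desulfurase, Nfs1 (224 against 234, -0.06). The co-chaperone Hscb, which works with Hspa9, went the other way (281 against 345, -0.30), as did the iron-sulfur protein Cisd3 (282 against 390, -0.47). None of the 15 reached 1.5-fold. The 9 cytosolic iron-sulfur assembly genes lay between -0.21 (Glrx3) and 0.17 (Mms19), with a median of 0.03. The 11 heme synthesis and transport genes had a median of -0.02. Abcb6, a porphyrin transporter, read 59.4 in the vector clone and fell short of the floor in the Ndrg-1 clone, a ratio of -0.94 or lower, and the heme exporter Flvcr1 read 228 against 184 (0.31).

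Among uptake genes of this wider list, Slc39a14, the zinc transporter ZIP14 that also carries free iron, read 484 against 358 (0.44) on its brighter probe set and 111 against 106 (0.06) on the other. Regulators of the pathway that passed the floor in both arrays lay near 0, though mRNA signals do not measure the activity of the encoded proteins. Nfe2l2, which encodes the oxidant-response factor NRF2 that drives Hmox1, read 1381 against 1418 (-0.04). Hif1a, the hypoxia-inducible factor with Tfrc among its known targets, read 1253 against 1114 (0.17), and Fbxl5, which marks iron regulatory protein 2 for destruction, 463 against 493 (-0.09). Bach1, the heme-sensing repressor of Hmox1, and Epas1, the hypoxia-inducible factor of iron absorption, were under the floor in the vector clone and read 36.6 and 52.0 in the Ndrg-1 clone, ratios of at least 0.24 and 0.74. A second Epas1 probe set was under the floor in both arrays.

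**Figure D5:**
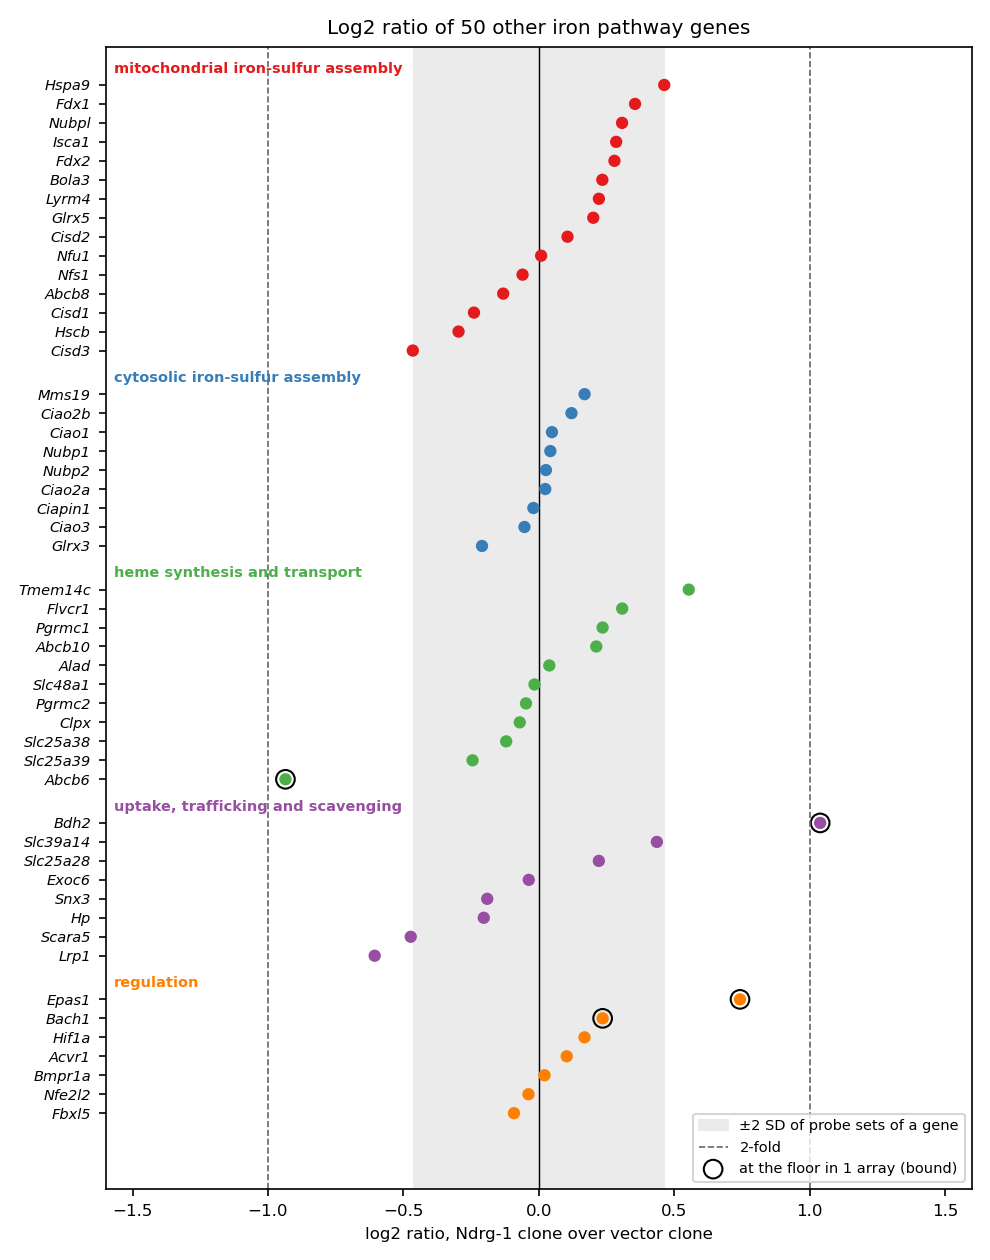
Log2 ratio of the 50 measured genes of the wider iron list by role, with the 2 SD band (0.46), dashed lines at 2-fold and rings around genes at the floor in 1 array. Bdh2 is the 1 gene past 2-fold, at its bound of 1.04, and Abcb6 comes closest on the lower side at -0.94.

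Array-wide checks set limits on these values. Ndrg1, the gene named as the insert, read 1353 against 1066 (0.34) on its brighter probe set and 154 against 182 (-0.24) on the other. Neither reading differed by 2-fold, though the sample title describes the Ndrg-1 clone as over-expressing this gene. Whether these probe sets read the inserted copy was not tested. Of 10 prostate epithelial markers, 8 were on the array and Krt8 alone was above the floor (38.7 and 46.4), with Epcam, Cdh1 and Krt18 under it. Of 9 erythroid markers, 6 were on the array and Epor alone was above the floor (43.7 and 45.9), with Hbb, Gata1 and Klf1 under it. Of the 7 hepatocyte markers, Ttr alone was above it, in the vector clone (35.3), with Alb under it in both. Of the 10 macrophage markers, a cell type with high HMOX1, 3 were above the floor. Cd68 was higher in the Ndrg-1 clone (206 against 114), Cd14 was lower (210 against 309), Csf1r was above the floor in the vector clone alone (33.4), and Ptprc, Adgre1, Itgam and Cd163 were all under it. Any part of macrophage RNA in the Hmox1 and Lcn2 differences was not tested. Summed signals of the macrophage list were 480 and 503, of the erythroid list 103 and 91.9, of the hepatocyte list 83.8 and 110, and of the epithelial list 76.5 and 85.9 in the Ndrg-1 and vector clones.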

How the data were processed

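For each array the authors deposited 1 linear intensity per probe set, its signal. GCOS 1.3 is the tool named in the submitters' processing notes, and the sources used here do not give its summary method, scaling setting or detection calls. Trimmed of 2% of probe sets at either end, the mean signal was 150.0 in both arrays, so the signals had been scaled before deposit. Of 31099 probe sets, 57 were controls, 20826 carried 1 gene symbol in the platform annotation, 436 several and 9780 none, and 20758 of those with 1 symbol matched a RefSeq gene of GRCr8.

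Signals of the vector clone were multiplied to bring the median log2 ratio to 0 over probe sets with an above-median mean log2 signal (a shift of 0.0048), and signals under the median were raised to it. Where a gene had several probe sets, the one with the highest mean log2 signal stood for it. A difference was counted at 2-fold. Every measured member is named. Of the wider list, genes past 2-fold and the 2 highest and 2 lowest ratios are named by rule, and others were named after their values were seen. The members and lists were chosen with earlier results of these data known. The procedure was run on simulated arrays with noise set by the spread between probe sets. The planted changes were larger than the difference of Hmox1. No variation between clones, cultures or arrays was simulated, so the run does not bear on whether the differences reported here would repeat. The number of arrays limits the precision. The alternatives left out the rescaling, used quantile normalization, took off a lowess trend or scaled to either set of spikes. Others moved the floor to the 25th or 75th percentile, replaced it with a pseudocount of 16, took the median over probe sets, or dropped _x_at and _s_at probe sets. The 1.5-fold threshold was added after seeing the data. The tools were numpy 2.4.6, pandas 2.3.3, matplotlib 3.10.9 and statsmodels 0.14.6, under Python 3.11.15.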

Additional observations from a re-analysis of the deposited data

How the results depend on the processing

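Hmox1 was the 1 member at least 2-fold higher in 7 of the 10 alternative settings. The count was 3 with hybridisation-spike scaling (with Tfrc and Lcn2), 0 with poly-A scaling, 2 with the floor at the 25th percentile (with Heph), and 3 at a threshold of 1.5-fold. The count at least 2-fold lower was 0 except with the floor at the 25th percentile, where it was 1 (Tfr2). The members' median log2 ratio was 0.43 with hybridisation-spike scaling and -0.29 with poly-A scaling, and moved by less than the SD of the spread between probe sets in the other 8. In the wider list the count at least 2-fold higher was 4 with hybridisation-spike scaling, 0 with poly-A scaling, 4 with the floor at the 25th percentile, 0 at the 75th, 2 with the pseudocount and no floor, and 2 at 1.5-fold. The count at least 2-fold lower was 1 with poly-A scaling, with the floor at the 25th percentile and with the pseudocount (Abcb6 in each), and 2 at 1.5-fold. A lower floor or none raises low readings less, a higher floor raises more of them (Bdh2 lies under the 75th percentile), and scaling to spikes shifts every gene. No paired analysis was possible because each group had 1 array. Genes near or under the floor, such as Heph, Tfr2, Abcb6 and Bdh2, rest on signals close to that level.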

Other observations

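Ferritin was read only by probe sets shared between genes, so the following values belong to no single gene. The probe set listed for the ferritin heavy chain gene Fth1 and 1 pseudogene read 4072 in the Ndrg-1 clone and 5423 in the vector clone, a log2 ratio of -0.41. The probe set listed for the light chain gene Ftl1 and 4 other loci read 3976 against 4727, a log2 ratio of -0.25. Both lie in the signal range where the ratio of all genes bent down (median -0.15 in the brightest decile). That decile spans mean signals of 1189 to 5373, and both ferritin probe sets lie in its upper part, for which no separate median was taken. Any part of this bend in the ferritin ratios was not tested. The 2 probe sets listed for transferrin (Tf) and Srprb were under the floor in both arrays.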
